A study of Mus musculus with 16 samples.

Results

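Srebf2, Hmgcs1, Npc1l1, Sqle and Insig1, 5 mouse genes of cholesterol synthesis and uptake, were followed across histone mark data from intestinal epithelial cells with and without the corepressor NCoR1. They were chosen by name, with earlier results of these data known. A listed region was joined to one of them when the start nearest to its summit, among the starts of protein-coding genes, belonged to that gene and lay within 50 kb. By this rule 10 of the 23511 listed regions belonged to 4 of the 5 genes. Hmgcs1 has no gene model in the mm9 annotation used, so no region could be joined to it. The cells were isolated from the jejunum of C57BL/6 neonates at postnatal day 12, from mouse lines that the labels name F/FUN and DIECUN without spelling the names out, and the libraries are labelled WT and KO. The sources used here give neither the Cre driver nor the number of animals behind a library. The files also list 89 regions on an added UGT1A sequence beside the mouse chromosomes, so that sequence was part of the reference used for both genotypes. Chromatin was immunoprecipitated for H3K27ac, H3K9ac, H3K4me3 and H3K4me1, which mark active promoters and enhancers, and for H3K9me3 and H3K27me3, which mark silenced chromatin. Each mark was profiled in a single library of each genotype (1 WT and 1 KO), replicate error is therefore unknown, and all values below describe these libraries.

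Animal cells make cholesterol from acetyl-CoA through mevalonate and squalene, and enterocytes also absorb it from the gut lumen. SREBP2, the product of Srebf2, is a transcription factor held in the endoplasmic reticulum by SCAP and INSIG proteins while sterols are plentiful. It is cleaved and moves to the nucleus when sterols run low, and there it binds sterol regulatory elements, often near NF-Y sites, in the promoters of synthesis and uptake genes. Hmgcs1 encodes the cytosolic HMG-CoA synthase that acts just before mevalonate is made, and Sqle encodes squalene epoxidase, which opens the sterol ring steps. Insig1 encodes one of the retention proteins and is itself a target of SREBP2. Npc1l1 encodes the sterol transporter of the enterocyte brush border. NCoR1 brings histone deacetylase activity to unliganded nuclear receptors, among them the sterol-sensing LXRs, whose best known intestinal targets are the sterol exporters.

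The sequences that carry the findings are 5 of the listed regions, at least 1 for each gene that had any, and the promoters of Srebf2 and Hmgcs1, the member that encodes the regulator and the member with no region values. Regions are given on the plus strand of mm9, and capitals mark the 21 bases centred on the authors' summit. Npc1l1 lies on the minus strand, so its start lies beyond the left end of both Npc1l1 sequences as printed.
Npc1l1, KO-higher H3K27ac, chr11:6131516-6131780: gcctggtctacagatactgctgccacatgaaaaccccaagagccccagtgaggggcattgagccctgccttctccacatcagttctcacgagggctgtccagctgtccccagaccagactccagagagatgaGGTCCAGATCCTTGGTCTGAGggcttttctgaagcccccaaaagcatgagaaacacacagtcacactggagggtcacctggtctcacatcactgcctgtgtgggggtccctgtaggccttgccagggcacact
Npc1l1, KO-higher H3K9ac, chr11:6132602-6132804: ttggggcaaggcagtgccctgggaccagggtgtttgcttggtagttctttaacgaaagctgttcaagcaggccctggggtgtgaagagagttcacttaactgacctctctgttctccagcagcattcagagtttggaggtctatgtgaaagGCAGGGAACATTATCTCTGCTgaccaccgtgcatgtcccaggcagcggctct
Sqle, WT-higher H3K27ac, chr15:59146108-59146276: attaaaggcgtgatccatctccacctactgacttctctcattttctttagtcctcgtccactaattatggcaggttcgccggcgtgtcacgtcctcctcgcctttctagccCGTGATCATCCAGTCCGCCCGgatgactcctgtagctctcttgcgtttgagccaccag
Srebf2, WT-higher H3K27ac, chr15:82014683-82014923: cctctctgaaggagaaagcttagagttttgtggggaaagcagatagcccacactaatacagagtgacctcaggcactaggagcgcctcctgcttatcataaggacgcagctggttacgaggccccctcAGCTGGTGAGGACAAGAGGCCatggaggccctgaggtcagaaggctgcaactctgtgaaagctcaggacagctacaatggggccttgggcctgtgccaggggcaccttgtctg
Insig1, KO-higher H3K27ac, chr5:28358406-28358607: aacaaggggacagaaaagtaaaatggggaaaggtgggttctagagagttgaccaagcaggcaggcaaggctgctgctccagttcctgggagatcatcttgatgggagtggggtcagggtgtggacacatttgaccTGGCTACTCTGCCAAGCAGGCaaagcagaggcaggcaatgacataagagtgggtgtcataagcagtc
The promoters are the 250 bases before the start in RefSeq's GRCm38.p6 models (chr15:82147019-82147318 and chr13:119690101-119690400 with the 50 bases after it), on the strand of the gene, and capitals mark motif matches (ATTGG is CCAAT on the other strand).
Srebf2 promoter: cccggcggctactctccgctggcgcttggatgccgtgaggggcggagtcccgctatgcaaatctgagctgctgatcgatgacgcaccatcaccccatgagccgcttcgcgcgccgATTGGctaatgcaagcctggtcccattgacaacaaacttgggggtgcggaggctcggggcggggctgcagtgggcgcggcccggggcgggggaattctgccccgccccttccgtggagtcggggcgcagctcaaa
Hmgcs1 promoter: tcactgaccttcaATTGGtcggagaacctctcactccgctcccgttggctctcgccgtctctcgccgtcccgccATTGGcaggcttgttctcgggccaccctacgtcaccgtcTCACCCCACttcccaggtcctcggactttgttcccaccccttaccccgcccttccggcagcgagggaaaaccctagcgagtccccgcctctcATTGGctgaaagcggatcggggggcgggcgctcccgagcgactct

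Each deposited list holds the regions in which the library of one genotype exceeded that of the other for the same mark, and such a region is termed WT-higher or KO-higher after the genotype with more signal. For H3K4me1 and H3K27me3 the same regions were deposited under both genotypes, and they are termed WT-higher here after the WT list. The values of a region are the authors' own. The pileup counts the fragments that cover the summit after scaling both libraries down to the smaller one. The fold is the pileup, with 1 added, over the local background of the other genotype's library, with 1 added, and that background was computed back from the fold. The -log10 q is the peak caller's adjusted p-value for the reads of 2 libraries, and it compares those libraries, not the genotypes. Sequencing gave between 27946003 and 47976125 tags a library, and removal of duplicates reduced this to between 23925163 and 32444815. Of the 12 enterocyte marker genes followed, 11 had KO-higher H3K27ac and 8 had KO-higher H3K9ac, beside 11.5% and 4% of all protein-coding genes. None of the 8 immune or 8 stromal markers had an acetylation region in either direction. Of all 21833 protein-coding genes, 16676 likewise had none. Among the markers of all cell types, Ikzf1, Runx3 and the enterocyte gene Hnf4a had WT-higher H3K4me3, beside 15.2% of all genes. Runx3, Cdh5 and the enterocyte gene Krt20 had WT-higher H3K4me1, beside 7.58%. These WT-higher counts are close to the shares over all genes. KO-higher H3K4me3 lay at Vil1 and Apob (beside 0.298%) and KO-higher H3K9me3 at Vil1 and Col3a1 (beside 2.27%). Cdx2 was the enterocyte marker without KO-higher H3K27ac. A list records differences only, so a marker without a region may still carry the mark in both genotypes. Fewer cells of a type and less mark per cell cannot be told apart in such bulk libraries.

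Active marks differed in opposite directions at the members. Sqle had WT-higher regions only, of 3 marks, Npc1l1 and Insig1 had KO-higher regions only, and Srebf2 had both. Npc1l1 and Insig1, 2 of the 4 members with a gene model, had KO-higher H3K27ac, beside 11.5% of 21833 protein-coding genes. WT-higher H3K27ac was found at 2, Srebf2 and Sqle, beside 7.53% of genes. KO-higher H3K9ac lay at Npc1l1 (4% of genes) and WT-higher H3K9ac at Sqle (7.58%). KO-higher H3K4me3 lay at Srebf2 (0.298%) and WT-higher H3K4me3 at Sqle (15.2%). No member was joined to a WT-higher H3K4me1 region (7.58% of genes), a KO-higher or WT-higher H3K9me3 region (2.27% and 1.08%) or a WT-higher H3K27me3 region (0.861%). A WT-higher H3K4me1 region inside Srebf2 was joined to another gene. With 4 genes these counts describe the genes named and no more.

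**Figure D1:**
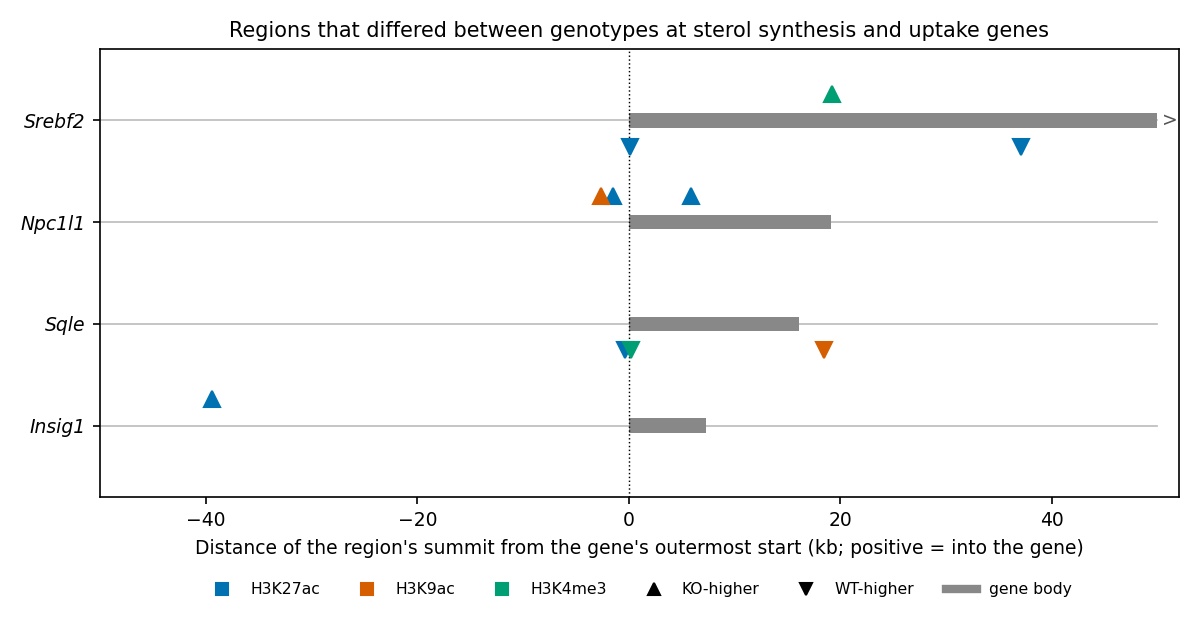
Distance in kb of each region's summit from the outermost annotated start of its gene, for the 4 members with a gene model. Triangles pointing up are KO-higher and those pointing down WT-higher regions, colours give the mark, grey bars give the gene body and > marks a gene longer than the axis. The Npc1l1 and Insig1 regions all point up, the Sqle regions all point down, and the Insig1 region lies 39401 bp upstream.

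Srebf2 (ENSMUSG00000022463) spans bases 81977696 to 82035806 of mm9 chromosome 15 on the plus strand. Its promoter had more H3K27ac in the WT library. The region, from 81977752 to 81978095, had its summit 140 bp after the start, in an exon, with a pileup of 113 in WT and a local background of 69 in KO. The fold was 1.63 and the -log10 q 2.95. Signal was thus high in both libraries, and the fold ranked 2358 among the 2510 WT-higher H3K27ac regions, whose median was 2.57. The GC content of this region was 72.4%, above the list's median of 59.5%, and the part of GC content in the difference was not tested.

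A WT-higher H3K27ac region of larger fold lay inside the gene, in intron 10 of 18, with its summit 37125 bp from the start. Its pileup was 56.6 in WT against a background of 21.0 in KO, a fold of 2.62 with a -log10 q of 6.01, the highest of the 10 regions. The nearest start of any kind of gene there is that of Mir33, a microRNA gene within Srebf2 whose product targets the exporter Abca1, 13731 bp away. At this intronic site both the WT signal and the KO background were below those of the promoter. A WT-higher H3K4me1 region of fold 2.32 had its summit inside Srebf2, 39499 bp from the start and past the intronic H3K27ac region. It was joined to Tnfrsf13c, whose start was nearer, at 37571 bp.

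The only KO-higher region of Srebf2 was of H3K4me3, in intron 1 (81996820 to 81996996), 19256 bp from the start. The pileup was 35.9 in KO and the background 13 in WT. The fold of 2.64 (-log10 q 2.49) ranked 120 among the 131 KO-higher H3K4me3 regions, whose median fold was 4.32. It thus stood near the lower end of a short list. No H3K27ac or H3K9ac region of either direction shared bases with it.

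A neighbour of Srebf2 is a further point of comparison. The start of Ccdc134, 19344 bp upstream of Srebf2, had WT-higher regions of H3K27ac (fold 2.23), H3K9ac (1.87) and H3K4me3 (1.72), whereas Srebf2's own start was listed for H3K27ac alone. WT-higher promoter regions were therefore not limited to Srebf2 within this stretch of chromosome 15.

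Sqle (ENSMUSG00000022351) spans bases 59146632 to 59162747 of chromosome 15 on the plus strand, with 4 annotated starts. It had more signal of 3 active marks in the WT library. H3K27ac was WT-higher just upstream, with a summit 403 bp before the start, a pileup of 41.7 in WT and a background of 16.0 in KO (fold 2.51, -log10 q 3.71). This fold was close to the list's median of 2.57. H3K4me3 was WT-higher from 59146694 to 59147062, in the untranslated part of the transcript 132 bp past a start. There the pileup was 101 in WT and the background 53.9 in KO, a fold of 1.86 with a -log10 q of 4.51. Both libraries thus carried substantial H3K4me3 at the Sqle start, and the list's median fold was higher, at 2.1.

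The third Sqle region, of WT-higher H3K9ac (59164987 to 59165124), had the highest fold of the 10, at 4.34, but on few fragments. The pileup was 19 in WT against a background of 3.61 in KO, with a -log10 q of 4.38. It lies beyond the end of Sqle, in the last intron (28 of 28) of E430025E21Rik. Its summit was 7962 bp from an internal Sqle start and 18428 bp from the outermost one, so its link to Sqle rests on the nearest-start rule. No H3K9ac region was listed at the Sqle promoter itself. GC content was 53.3%, 62.9% and 53.6% in the H3K27ac, H3K4me3 and H3K9ac regions, below the medians of the 3 lists (59.5%, 64.6% and 61.6%).

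Npc1l1 (ENSMUSG00000020447) spans bases 6111016 to 6130146 of chromosome 11 on the minus strand, with 2 annotated starts. Acetylation was higher in the KO library upstream of the gene and inside it. The H3K27ac region closest to the start had its summit 1512 bp upstream, between genes, and carried the strongest signal of all 10 regions, with a pileup of 142 in KO and a background of 82.4 in WT. Its fold was 1.72 and its -log10 q 5.58. The H3K9ac region lay 2617 bp upstream, with a pileup of 47.0 in KO and a background of 18.5 in WT (fold 2.46, -log10 q 3.81). The 2 upstream regions did not share bases. The lists give no value of either mark at the other's position, so a difference below the cutoff there cannot be seen.

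Within Npc1l1, a KO-higher H3K27ac region (6124250 to 6124414) lay in an exon 5823 bp past a start. The pileup was 44.0 in KO and the background 16.8 in WT, a fold of 2.53 with a -log10 q of 4.74, ranking 3527 of 7111. The upstream H3K27ac fold ranked 6422, and the H3K9ac fold ranked 1271 of 1883. The medians of the lists were 2.52 for KO-higher H3K27ac and 2.91 for KO-higher H3K9ac. The Npc1l1 folds were thus close to or below the middle of their lists. Npc1l1 is itself an enterocyte gene, and the KO-higher acetylation at 11 of 12 enterocyte markers moved in the same direction. Its part in the Npc1l1 values was not tested. A further KO-higher H3K27ac region 22398 bp upstream (fold 1.73) was joined to Ddx56, whose start was nearer.

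Insig1 (ENSMUSG00000045294) spans bases 28397952 to 28405201 of chromosome 5 on the plus strand. Its single region, of KO-higher H3K27ac, had a summit 39401 bp upstream, with a pileup of 87.0 in KO and a background of 43.7 in WT. The fold was 1.97 and the -log10 q 5.21, ranking 5531 of 7111 by fold. The region lies in intron 2 of the long noncoding RNA gene Gm16719, whose start is nearer, at 23448 bp. No region of any list was found at the Insig1 promoter or inside the gene. This was the member region farthest from its gene, and no region of the members' own lay between 50 and 100 kb.

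**Figure D2:**
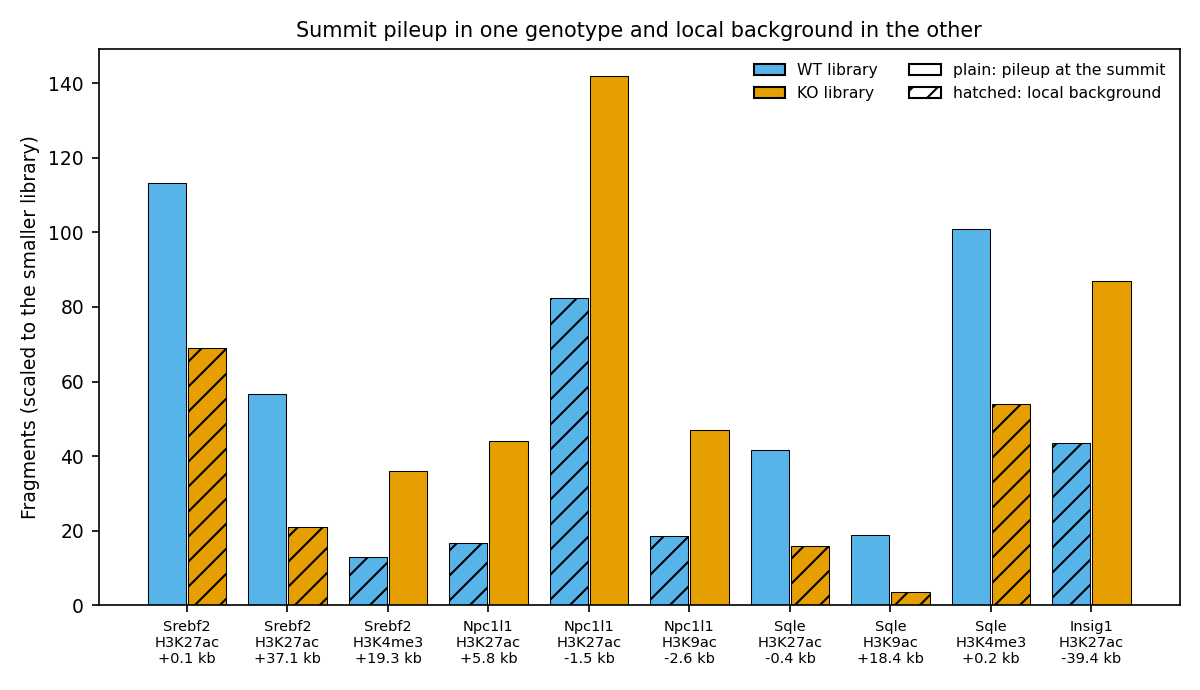
Fragments at each of the 10 regions, scaled to the smaller library: blue bars are the WT and orange bars the KO library, plain bars give the pileup at the summit and hatched bars the other genotype's local background computed from the fold. The other genotype's background ranged from 3.61 at the Sqle H3K9ac region to 82.4 at the upstream Npc1l1 H3K27ac region, so the differences at several sites lay on top of signal in both libraries. There is 1 library per bar and no error can be drawn.

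Hmgcs1 could not be followed in the region lists. Its 300-base RefSeq promoter matched the mm9 assembly exactly at 2 places, both on unplaced scaffolds and none on a placed chromosome, whereas those of Srebf2, Npc1l1 and Insig1 each matched at 1 place, on a chromosome. The lists name 1 region on the unplaced part of chromosome 13, a WT-higher H3K4me3 region from base 31223 to 31468 (fold 2.36, pileup 62.0). The sources used here do not say how that part relates to the 2 scaffolds, and the region was joined to no gene. The absence of Hmgcs1 from the counts is therefore a limit of the annotation and not a measurement.

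**Figure D3:**
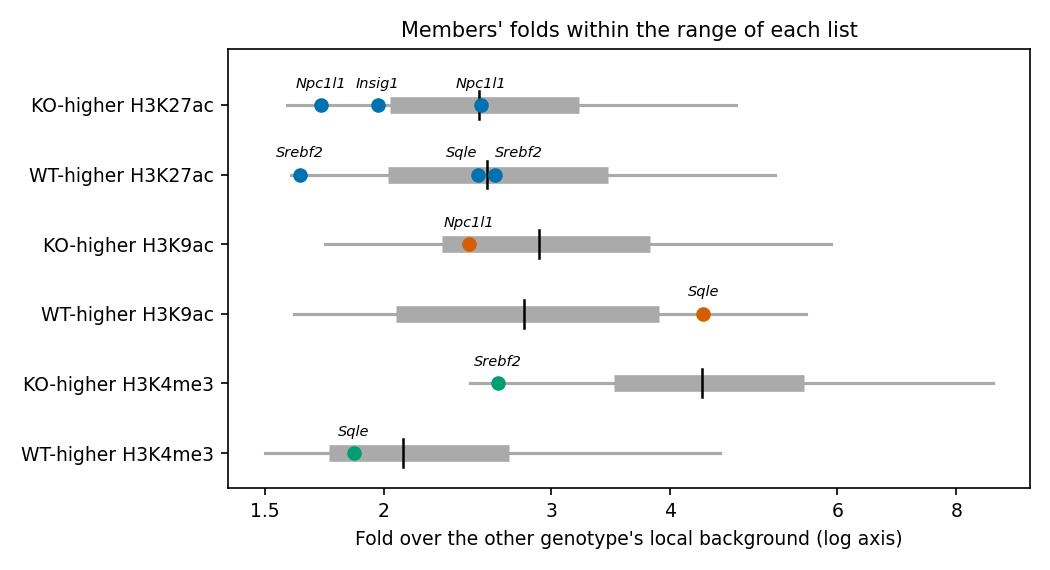
Fold of each member region (points, labelled by gene) within its deposited list, on a log axis; thin lines span the 5th to 95th percentile, thick bars the 25th to 75th, and black ticks the median of all regions of the list. The Sqle H3K9ac region, at 4.34, lies above the 75th percentile, and the Srebf2 H3K4me3, Srebf2 promoter H3K27ac, Insig1 and upstream Npc1l1 regions lie below the 25th.

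The 10 regions shared bases neither with one another nor with a region of any other list. Of the 10, 3 had summits within 1 kb of a start (Srebf2 H3K27ac, Sqle H3K27ac and Sqle H3K4me3), and all 3 were WT-higher. The KO-higher regions of the members all lay farther out, the nearest at 1512 bp. The same split runs through the lists as wholes, since 39.0% of WT-higher and 10.3% of KO-higher H3K27ac regions lay within 1 kb of a start. For H3K4me3 these shares were 68.6% and 15.3%.

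Motifs were searched on both strands in the 10 regions and in the promoters: TCACNCCAC, a form of the sterol regulatory element, CCAAT, the core of the NF-Y site, and 2 copies of AGGTCA in the same direction with 4 bases between them, the element of LXR. None of the 3 motifs contains another. None of the 10 regions held a match to any of them. Of windows of the same lengths at the regions of the same lists, 9.68% to 26.1% held CCAAT and 0.479% to 1.52% held TCACNCCAC. At most 0.0282% held the repeat of AGGTCA. For this repeat and for TCACNCCAC, 0 of 10 regions is thus close to the shares of the lists. In the RefSeq promoters, which reach from 250 bases before to 50 after the start, TCACNCCAC occurred at Hmgcs1 only among the 4 members present in the table, beginning 137 bases before the start, and in 1.25% of all 32619 promoters. Sqle is not in that table. CCAAT occurred in all 4, once each at Srebf2, Npc1l1 and Insig1 and 4 times at Hmgcs1 (3 of them in the bases printed), and in 37.6% of all promoters. The repeat of AGGTCA was found in no member's promoter and in 5 of the 32619. A match describes letters only, and its absence says that these letters are not in the window.

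The other genes of the pathway were taken from lists of 41 genes, likewise chosen with earlier results of these data known. Of these 38 could be followed, Hmgcs1 had no gene model and 2, Npc1 and Stard4, were not analysed here. Among 17 genes for enzymes of synthesis, the acetylation marks H3K27ac and H3K9ac had WT-higher regions at 9, beside 12.7% of all protein-coding genes, and KO-higher regions at 2, beside 12.2%. Sc5d, the sterol desaturase, was in both counts. Sqle was thus 1 of 9 synthesis genes with WT-higher acetylation, and without the members 8 of 16 had such a region.

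Mvk and Pmvk apart, these genes act in the sterol ring steps that Sqle opens. Of 10 ring-step genes, 6 had WT-higher H3K27ac, namely Sqle, Lss, Cyp51, Hsd17b7, Sc5d and Dhcr7, beside 7.53% of all genes. WT-higher H3K9ac was found at 3 (Sqle, Lss and Msmo1), beside 7.58%. Besides Sqle, the H3K9ac folds were 3.99 at Lss, the lanosterol synthase, and 2.55 at Msmo1, a sterol methyl oxidase. Lss and Dhcr7 also had WT-higher H3K4me1 (3.32 and 2.19), likewise beside 7.58% of all genes. WT-higher H3K4me3 was found at 5 (Sqle, Lss, Cyp51, Hsd17b7 and Sc5d), each within 1 kb of a start, with folds of 1.52 to 2.06, beside 12% of all genes with such a region within 1 kb. In these libraries H3K4me3 regions were WT-higher in most cases genome-wide, 4166 against 131. At the start of Hsd17b7, which reduces a ketone of the sterol ring, the H3K27ac pileup was 128 in WT and the background 61.0 in KO (fold 2.08). At Sc5d these were 78.4 and 26.0 (2.94), and at Cyp51, the lanosterol demethylase, 90.3 and 39.8 (2.24). Within 1 kb of a start, WT-higher H3K27ac lay at Sqle, Cyp51, Hsd17b7 and Sc5d, beside 4.05% of all genes. The synthesis genes with KO-higher H3K27ac were Sc5d, 14329 bp from its start (fold 2.49), and Fdft1, the squalene synthase, 5500 bp upstream and within Neil2 (2.32).

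Before squalene, 3 of 7 genes with a model had a region of H3K27ac, H3K9ac or H3K4me3. Of all 21833 protein-coding genes, 14640 had no region of these marks, so 3 of 7 is close to the share over all genes. Besides Fdft1, the genes with a region were Mvk and Pmvk, the kinases acting on mevalonate and its phosphate. Both had WT-higher H3K9ac (beside 7.58% of all genes), 14786 and 10315 bp from a start, with folds of 2.59 and 4.34. Mvk also had a WT-higher region of the silencing mark H3K9me3 (3.48), 42439 bp from a start, beside 1.08% of all genes. Of the ring-step genes, Sc5d had such a region too (3.71), 26289 bp from a start.

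Of 7 genes that control SREBP, 4 had KO-higher H3K27ac, beside 11.5% of all genes: Insig1, its paralog Insig2 (fold 3.95, with a pileup of 50.0 in KO and a background of 11.9 in WT), the protease gene Mbtps1 (2.03) and Srebf1. Of the 7, Srebf2 had WT-higher H3K27ac, beside 7.53% of all genes, and the protease gene Mbtps2 had WT-higher H3K4me3 (1.64), beside 15.2%. Each count, 1 of 7, is close to the share over all genes. Srebf1, the paralog of Srebf2 that chiefly drives fatty acid genes and is a target of LXR, had 24 KO-higher H3K27ac regions and 15 of H3K9ac, with none WT-higher in either mark, and its highest fold was 4.72, for H3K9ac. It also had 1 WT-higher H3K4me1 region (2.55), a mark and direction found at 7.58% of all genes. The paralogs thus had acetylation regions in opposite directions. KO-higher H3K4me3 was found at both, beside 0.298% of all genes, with folds of 4.31 at Srebf1 and 2.64 at Srebf2.

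Among 8 genes of uptake and trafficking, 0 had WT-higher acetylation, beside 12.7% of all genes, so that a count of 0 is close to the share over all genes. KO-higher H3K27ac lay at 3, beside 11.5% of all genes, namely Npc1l1, the lipoprotein receptor Lrp1 (fold 1.41) and Lipa, the lysosomal acid lipase (3.65). KO-higher H3K9ac lay at Npc1l1 and at Lipa (4.32), beside 4%. WT-higher H3K4me3 lay at Lrp1 and at Scarb1, the receptor for high-density lipoprotein (2 regions, highest fold 3.34), beside 15.2%. WT-higher H3K4me1 lay at Scarb1 (2.31) and Npc2 (3.64), beside 7.58%. With 2 of 8 genes for each mark, these counts describe the genes named and no more. At Lrp1 the start was split by mark, with KO-higher H3K27ac 368 bp before it and WT-higher H3K4me3 (1.72) 334 bp past it. Both esterification genes, Soat1 (2.98) and Soat2 (1.36), had KO-higher H3K27ac, again beside 11.5%.

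The 4 efflux genes served for comparison with the members. Abca1, Abcg1, Abcg5 and Abcg8 held 37 KO-higher H3K27ac and 27 KO-higher H3K9ac regions, against 3 and 1 at the members. Abcg5 and Abcg8 had 15 and 5 of these H3K27ac regions and 11 and 10 of the H3K9ac regions. The Abcg5 H3K9ac region of highest fold lies in introns of both genes, so the split between them rests on the nearest-start rule. The highest H3K27ac folds were 8.80 at Abca1 and 8.40 at Abcg1, with 4.02 at Abcg5 and 3.1 at Abcg8, against 2.53 for the KO-higher H3K27ac regions of the members. At Abcg5 and Abcg8 the highest folds of any mark were 4.78 (H3K4me3) and 6.29 (H3K9ac). Abca1 and Abcg5 also had WT-higher H3K4me1 (2.53 and 2.82), beside 7.58% of all genes. Abca1 had a WT-higher region of the silencing mark H3K27me3 (4.72), beside 0.861%. Of the 4 efflux genes, 0 had WT-higher acetylation, beside 12.7% of all genes, so that a count of 0 is close to that share. Srebf2 and Sqle had such regions. The difference between the efflux genes and the members was not tested, since there is 1 library per mark and genotype.

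**Figure D4:**
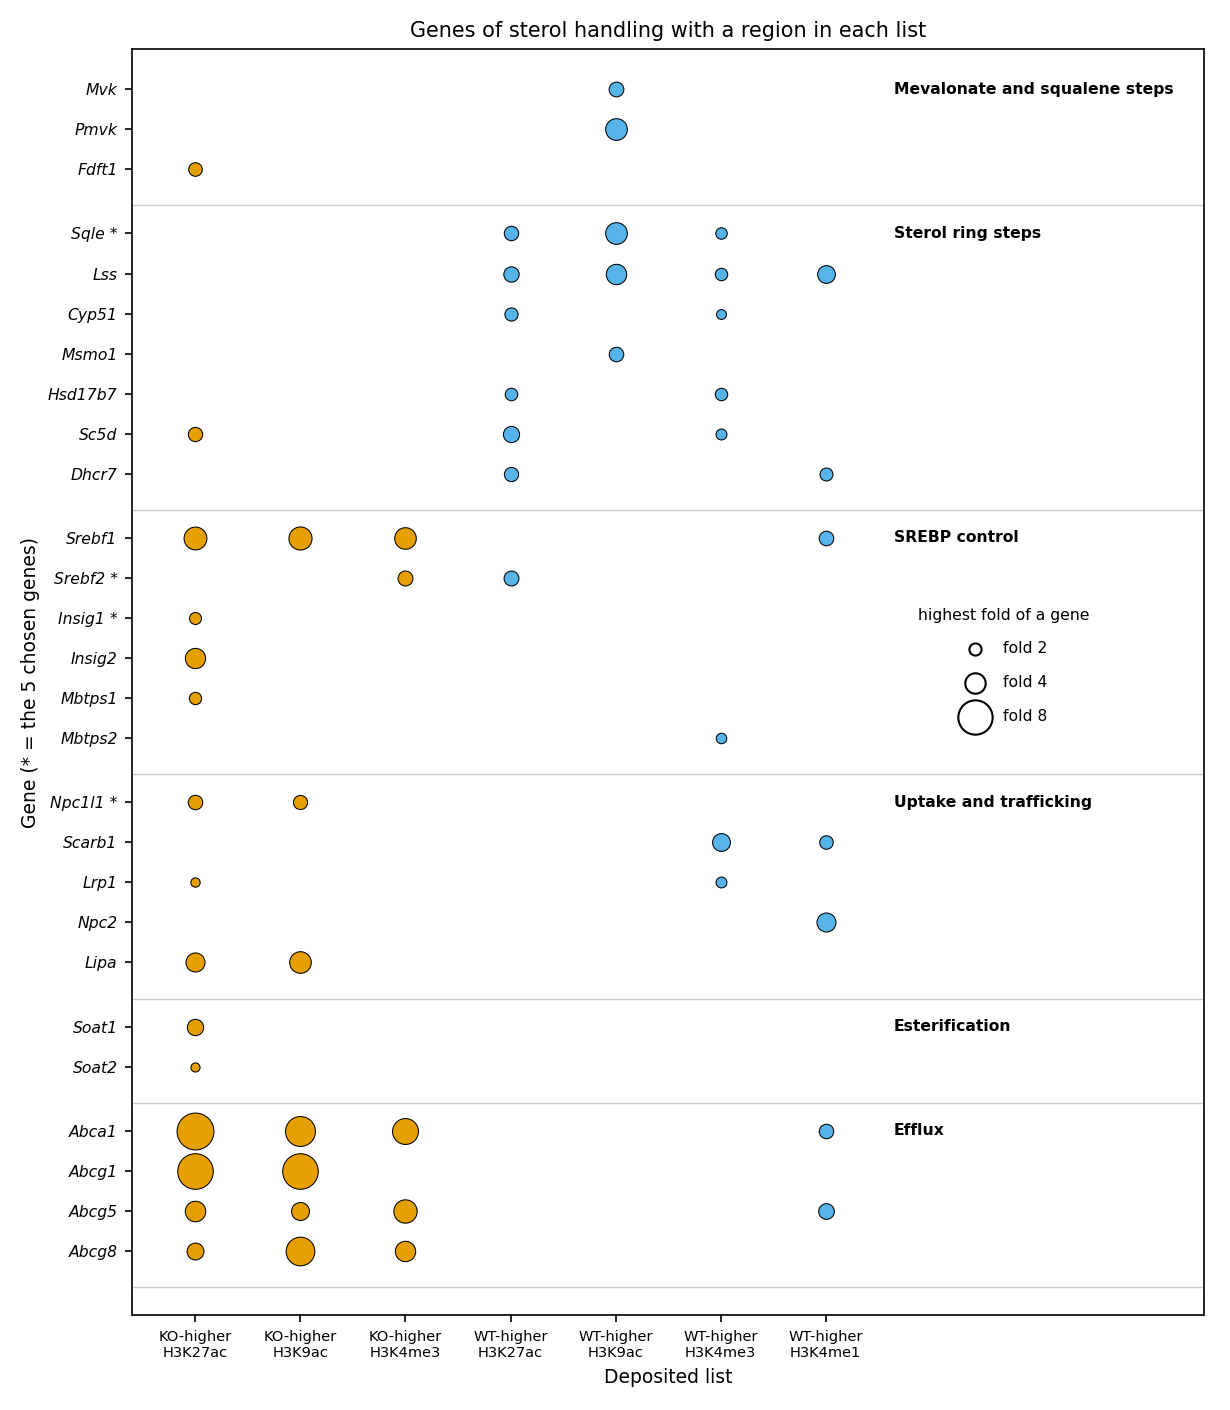
Genes of the sterol lists (rows, grouped by role) with at least 1 region in each of 7 deposited lists of active marks (columns); circle area grows with the highest fold of the gene, orange is KO-higher and blue WT-higher, and genes with no such region are not drawn. WT-higher circles gather at the sterol ring steps, where 6 of 10 genes have H3K27ac and 5 have H3K4me3, beside 7.53% and 15.2% of all genes. All 4 efflux genes have KO-higher circles for H3K27ac and H3K9ac, beside 11.5% and 4% of all genes.

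RNA was given for few of these genes. The authors' deposited table accompanies their H3K4me1 list and pairs its regions with the log2 fold change of the nearest gene's RNA and its FDR. Genes not paired with such a region are outside it, so a gene's absence from it is not a measurement. The table holds 1549 genes and none of the 5 members. Its column is headed wt vs. ko, and positive values were read as higher in KO from the way HOMER names such columns. Under the other reading all directions of RNA given here would reverse. At an FDR under 0.05, RNA was higher in KO for 4.97% and lower for 9.62% of the genes of the authors' deposited table. These shares describe genes paired with H3K4me1 regions and not all genes. Dhcr7, which makes cholesterol from its immediate precursor, was lower in KO in the authors' deposited table, with a log2 fold change of -0.61 (FDR 8.7e-05). The WT-higher H3K27ac region of Dhcr7 (fold 2.48) lay inside the gene, 6854 bp from a start and not at its promoter. Npc2, a lysosomal sterol carrier, was at -0.26 (FDR 0.0444) and Scarb1 at -0.12 (FDR 0.825) in the authors' deposited table. Abca1 at 2.83 (FDR 8.6e-113) and Abcg5 at 1.23 (FDR 6.38e-56) were higher in KO in the authors' deposited table. No RNA value therefore stands beside the regions of Srebf2, Sqle, Npc1l1 or Insig1.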

How the data were processed

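ChIP-seq of 6 histone marks, 1 WT and 1 KO library each, was used, and 4 input libraries were not. Per the labels' protocols, sequencing ran for 50 cycles and tags were mapped to mm9. Tools in the submitters' processing notes are HOMER 3.12, MACS2 2.1.1, Bowtie2 2.2.9 and CASAVA 1.8.2. The headers of the files instead give tags of 75 bp and MACS 2.0.10.20130419, and the discrepancy was not resolved. Per the file headers, the authors called each library against that of the other genotype at a q cutoff of 0.05, keeping 1 tag per position. Calls were thus made per library and not on pooled samples. For each region the authors deposited the fold, a ratio to the local background, the pileup, a signal brought to the depth of the smaller library, and -log10 of the p-value and q-value. Adding 1 to pileup and background gave the deposited fold within 0.005 for 100% of 1498 regions, and the plain ratio did so for 5.61%. The KO lists of H3K4me1 and H3K27me3 (2 of 12) hold the same regions as their WT lists, which left 10 lists. The term WT-higher for these marks follows the WT list, which was read first and kept.

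Summits were joined to GENCODE gene models of mm9 with Python 3.11.15 and numpy 2.4.6. The background held 21833 protein-coding genes, without chromosomes 18, Y and M, which were not analysed here. Promoters came from RefSeq (GRCm38.p6), which held 4 of the 5 members. The log2 fold change and FDR (an adjusted p-value) of RNA are the authors' deposited values, whose test the sources used here do not name, and the 12 per-library RNA columns were not used. Figures were drawn with matplotlib 3.10.9. The joining step was tested on simulated data. Every region of a member was described, and of the wider lists the region of highest fold for each gene with a region of an active mark or an RNA value past the FDR. Some genes of the wider lists are not reported here and were left out of their counts. Members and lists were chosen with earlier results of these data known. No p-value was computed, since there are no replicates. Distance, competing starts, thresholds and promoter width were varied.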

Additional observations from a re-analysis of the deposited data

How the results depend on the processing

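All 10 regions of the members passed the authors' q cutoff, and stricter limits removed most of them. With a fold of at least 3, the members kept 0 of 3 KO-higher H3K27ac, 0 of 3 WT-higher H3K27ac, 0 of 1 KO-higher H3K9ac, 0 of 1 KO-higher H3K4me3 and 0 of 1 WT-higher H3K4me3 regions, and the Sqle H3K9ac region alone passed. Genes of the wider lists then numbered 7 rather than 15 for KO-higher H3K27ac and 1 rather than 8 for WT-higher H3K4me3. With a -log10 q of at least 5, 0 regions were left for KO-higher H3K9ac, KO-higher H3K4me3, WT-higher H3K9ac and WT-higher H3K4me3, 1 for WT-higher H3K27ac and 2 for KO-higher H3K27ac, and 3 wider genes had WT-higher H3K4me3. Within 10 kb, 0 KO-higher H3K4me3 regions and 1 member with KO-higher H3K27ac, Npc1l1, were left, and the same 1 member overlapped such a region with its body or the 5 kb upstream. When noncoding starts also competed, the Insig1 region and the intronic Srebf2 region went to other genes, leaving 2 KO-higher and 2 WT-higher H3K27ac regions. At 100 kb no count changed. No paired analysis was possible because each mark and genotype has 1 library and no test was made. Leaving out a library was not possible for the same reason. The Sqle H3K9ac region rests on the fewest fragments, 19 against a background of 3.61.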
